A study of Mus musculus with 12 samples.

Results

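Gene expression was compared between B16F10 melanoma tumours of mice given alisertib alone and tumours of mice given vehicle, with 3 libraries in each group. These are 6 of the 12 libraries of the series, chosen by the treatment written in the labels and by the second header line of the expression table. B16F10 is a pigmented mouse melanoma cell line of C57BL/6 origin, and here 50000 of its cells had been placed under the skin of C57Bl/6 mice. The alisertib group received 25 mg/kg alisertib and the vehicle group received the drug vehicles, both by daily oral gavage for 11 days. The other 6 libraries are used as a second test of alisertib: 3 came from tumours of mice given 25 mg/kg alisertib together with 100 mg/kg navitoclax, and 3 from mice given 100 mg/kg navitoclax. All groups share the same cell line, host strain and dosing schedule, so each tumour holds injected melanoma cells and whatever host cells had entered it. Total RNA was depleted of ribosomal RNA and sequenced with a directional kit. The labels do not say that the libraries came from separate mice, so a p-value here speaks of the spread among these libraries alone, and that spread may be technical.

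Alisertib is an inhibitor of Aurora kinase A, a serine/threonine kinase that matures centrosomes and builds the mitotic spindle together with its activator TPX2. Navitoclax is a drug against the BCL-2 family proteins that keep cells alive. Cells held up in mitosis, or that leave it with damaged or extra chromosomes, can stabilise the transcription factor p53, which induces the cell cycle inhibitor p21, its own antagonist MDM2, and genes of arrest, repair and death. Amino acid shortage and other stresses raise translation of the transcription factor ATF4, which acts on genes of amino acid uptake and synthesis and of tRNA charging. Unfolded proteins in the endoplasmic reticulum (ER) act through ATF6 and XBP1 on ER chaperone genes, with HSPA5 (BiP) as the central chaperone.

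Levels below are the authors' normalized counts, which are read counts of a gene divided by 1 factor per library, without correction for gene length. A log2 difference is the mean of log2(normalized count + 2) in alisertib tumours minus that in vehicle tumours, given with its standard error (SE). The added 2 makes it understate the change of genes with low counts. Adjusted p is from limma, fitted to all 12 libraries and 16993 genes, with Benjamini-Hochberg adjustment, and a gene passed when it was under 0.05. Libraries held 26.8 to 36.7 M reads (M, mega). The share of ribosomal RNA loci was 73.7% in combination 3, 63.3% in vehicle 2 and 13.8 to 35.4% in the other 10 libraries, which left 9.86 M reads for all other genes in vehicle 2. The melanocyte genes Pmel and Sox10 were present in all 6 libraries: Pmel, which forms melanosome fibrils, had 170388, 148801 and 179688 normalized counts in alisertib tumours and 118314, 125600.0 and 132499 in vehicle tumours. Sox10, a regulator of the melanocyte lineage, had 17341, 15169 and 18921 in alisertib tumours and 15319, 20617 and 17125 in vehicle tumours. In such bulk samples, fewer cells of a type and less RNA per cell cannot be told apart.

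The genes that rose with alisertib included p53 targets such as Cdkn1a, Ccng1 and Trp53inp1. Those that fell included the ATF4 targets Fgf21 and Chac1 and the ER chaperone gene Hspa5. Of the 16993 genes tested, 148 passed (0.871%), with 94 higher (0.553%) and 54 lower (0.318%) in alisertib tumours. An unadjusted p under 0.05 was reached by 2213 of the 16993, in either direction, and 51.1% of all log2 differences were positive. By DESeq2 on recovered reads, 333 genes were higher and 292 lower. The falls were deeper than the rises. The log2 difference was at least 1 in size for 78 of the risen and 48 of the fallen genes, at least 2 for 31 and 36, and at least 3 for 6 and 21. The median log2 difference was 1.51 over the risen genes and -2.73 over the fallen genes, against 0.01 over all genes tested. Of the 148 genes, 143 are protein coding. In all 148, the 3 alisertib values lay entirely above or entirely below the 3 vehicle values, as did those of 10.7% (above) and 10.5% (below) of all genes tested. Without vehicle 2 and combination 3, the libraries rich in ribosomal RNA, 137 genes were higher (0.819%) and 59 lower (0.353%). When each alisertib or vehicle library was left out in turn, 49 to 97 genes passed, the fewest without alisertib 1 or vehicle 1 and the most without vehicle 3, and 41 genes (25 higher and 16 lower) passed in all 6 of these fits.

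**Figure D1:**
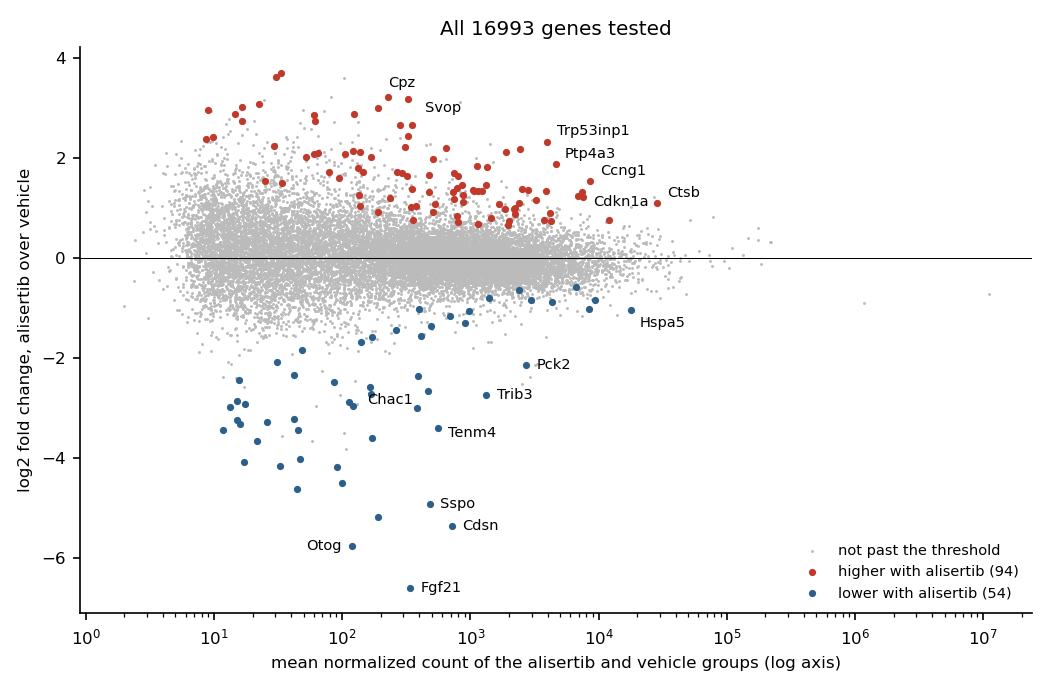
Log2 difference between alisertib and vehicle tumours (vertical axis) against the mean level over the 6 libraries (horizontal axis, log scale) for the 16993 genes tested, 1 point a gene. The 94 risen and 54 fallen genes are coloured, and the fallen genes reach further from 0 than the risen ones, down to -6.59 for Fgf21.

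Part of the p53 targets rose. Among 15 tested genes of p53-driven arrest and feedback, 8 rose and none fell, with a median log2 difference of 0.91 against 0.01 over all genes. Among 22 tested p53 targets of cell death and DNA repair, 9 rose and none fell, with a median of 0.63. The shares of risen genes compare with 0.553% among all genes. By DESeq2 on recovered reads, 9 of the 15 rose and 1 fell, while 10 of the 22 rose and none fell. Among all genes DESeq2 called 333 higher and 292 lower. These lists, like all gene lists here, were drawn up with earlier results of the same libraries known.

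Cdkn1a, which encodes the cell cycle inhibitor p21, had 10974, 10260.0 and 10482 normalized counts in alisertib tumours and 3247, 4874 and 4802 in vehicle tumours. The lowest alisertib library held more than the highest vehicle library by a wide margin, and the log2 difference was 1.32 ± 0.20 (adjusted p = 0.0127, limma). Without alisertib 1, 2 or 3, or without vehicle 1, its adjusted p missed the threshold, and reached 0.0765. Mdm2, whose product marks p53 for destruction, had 5614, 5428 and 5288 in alisertib tumours and 2589, 3626 and 2706 in vehicle tumours. The groups did not overlap and the log2 difference was 0.89 ± 0.16 (adjusted p = 0.027, limma). That call was lost without any 1 alisertib library and without vehicle 1 or 3, with adjusted p up to 0.149. Ccng1, which encodes cyclin G1, a feedback partner of MDM2, had 12926, 12376 and 12785 in alisertib tumours and 3441, 5077 and 4771 in vehicle tumours. The 3 alisertib values lay close together, and the log2 difference was 1.54 ± 0.19 (adjusted p = 0.00376, limma).

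The promoters of these 3 genes are shown because each holds a decamer of the p53 response element, of which a full element has a pair. RefSeq promoter windows (250 bases before to 50 after a gene's start, GRCm38.p6) were matched for 10928 of the tested genes. The decamer, searched on both strands, was in 906 of these (8.29%), in 16 of the 78 risen genes with a window (20.5%) and in 1 of the 41 fallen genes (2.44%), Cdsn. In the arrest and feedback list it was in 7 of 13 windows. A match is a run of letters, not a measured binding site. The sequences below, read 5′ to 3′ on the strand of the gene, have 1 decamer each in capitals. A second match in Cdkn1a, which begins 73 bases before the start, lies in the printed stretch and is left in lower case. The first base in capitals lies 51 bases before the RefSeq start in Cdkn1a, 186 before it in Mdm2 and 185 before it in Ccng1.
Cdkn1a (chr17:29090903-29090962, plus strand): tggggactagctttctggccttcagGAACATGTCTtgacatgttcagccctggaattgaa
Mdm2 (chr10:117710910-117710969, minus strand): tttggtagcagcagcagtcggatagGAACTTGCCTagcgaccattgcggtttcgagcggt
Ccng1 (chr11:40755437-40755496, minus strand): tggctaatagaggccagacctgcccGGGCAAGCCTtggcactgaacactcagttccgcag

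Trp53inp1, a p53-induced nuclear protein with roles in death and autophagy, had 7431, 5893 and 6106 normalized counts in alisertib tumours and 1369, 806 and 1924 in vehicle tumours. It had the largest log2 difference of the arrest and feedback list, 2.32 ± 0.25 (adjusted p = 0.00141, limma). Zmat3, an RNA-binding zinc finger protein, had 9722, 9033 and 10123 in alisertib tumours and 3514, 3999 and 4759 in vehicle tumours, a log2 difference of 1.24 ± 0.13 (adjusted p = 0.00141, limma). Ccng1, Trp53inp1 and Zmat3 passed in all 6 fits that left out a library. The other risen genes of this list were Btg2, an antiproliferative regulator (1.65), Plk2, a polo-like kinase (1.46), and Gtse1, a p53 regulator active in late cell cycle stages (1.37). The call of Btg2 was lost without alisertib 1 or 3 or vehicle 1 (adjusted p up to 0.0952, limma), that of Plk2 without alisertib 1 or 2 or vehicle 1 or 2 (up to 0.112), and that of Gtse1 without any library but vehicle 3 (up to 0.105). Sesn2, a stress-induced brake on mTORC1, had a log2 difference of 0.91 and did not pass (adjusted p = 0.0854, limma). Gadd45a, a growth arrest gene that ATF4 also drives, had 422, 479 and 412 in alisertib tumours and 809, 723 and 823 in vehicle tumours. All of its alisertib values were thus the lower ones, but its log2 difference of -0.84 ± 0.19 did not pass (adjusted p = 0.0717, limma).

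Among the death and repair genes, Tnfrsf10b, the mouse TRAIL death receptor, had 1705, 1745 and 1853 normalized counts in alisertib tumours and 579, 693 and 855 in vehicle tumours. The log2 difference was 1.33 ± 0.14 (adjusted p = 0.00141, limma), and it was the only gene of this list that passed in all 6 fits with a library left out. Pidd1, which assembles the complex that activates caspase-2, had 1651, 1498 and 1765 in alisertib tumours and 539, 728 and 694 in vehicle tumours (log2 difference 1.33 ± 0.20, adjusted p = 0.0105, limma, and up to 0.065 without alisertib 1 or 3 or vehicle 1). Aen, an apoptosis-enhancing nuclease, had 2887, 2886 and 2836 in alisertib tumours and 1596, 1338 and 1771 in vehicle tumours (log2 difference 0.88 ± 0.14, adjusted p = 0.0127, limma, and up to 0.0765 without any 1 alisertib library or vehicle 1). Ei24, an ER membrane protein, had 3537, 3231 and 2897 in alisertib tumours and 1488, 1225 and 1871 in vehicle tumours (log2 difference 1.09 ± 0.17, adjusted p = 0.0152, limma, and up to 0.1 without alisertib 1 or 2 or vehicle 1). In each of these 4 genes the alisertib values lay wholly above the vehicle values.
Fas, which encodes a death receptor, was barely counted in vehicle tumours and is named here after its values were seen. It had 68.1, 72.6 and 31.8 in alisertib tumours and 0.999, 2.45 and 5.30 in vehicle tumours, where 3 reads are worth 2.65 to 7.35 (log2 difference 3.61 ± 0.64, adjusted p = 0.0265, limma, and up to 0.144 without any library but vehicle 3). Bax, the pore-forming death effector, had a log2 difference of 0.60 ± 0.16 and did not pass (adjusted p = 0.135, limma). The other risen members were Dcxr, Eda2r, Ercc5 and Polk, with adjusted p up to 0.102, 0.126, 0.104 and 0.143 when a library was left out. Each of these 4 calls was lost without any 1 alisertib library or vehicle 1, and also without vehicle 3 for Dcxr and Ercc5 or vehicle 2 for Eda2r and Polk. The number of passing genes depended on single libraries: with each of the 6 left out, 3 to 7 of the arrest and feedback list and 1 to 7 of the death and repair list passed.

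Beyond these lists, 14 risen genes were named by their size of change among those that passed in every fit with a library left out. The steepest was Cpz, a secreted zinc carboxypeptidase that binds WNT proteins, with 389.8, 524 and 312 normalized counts in alisertib tumours and 29.0, 39.2 and 61.8 in vehicle tumours (log2 difference 3.21 ± 0.31, adjusted p = 0.000927, limma). Svop, a transporter-like protein of synaptic vesicles, had 569, 520.4 and 669 in alisertib tumours and 50.9, 100.5 and 48.5 in vehicle tumours (3.17 ± 0.37, adjusted p = 0.00243, limma). Celf5, an RNA-binding splicing regulator best known from brain, had 516, 455 and 464 in alisertib tumours and 68.9, 46.6 and 127 in vehicle tumours (2.65 ± 0.29, adjusted p = 0.00172, limma). In all 3 genes the lowest alisertib value was several times the highest vehicle value.
The smallest adjusted p of the comparison, 0.000263 by limma, belonged to Ptp4a3, a membrane-anchored tyrosine phosphatase (PRL-3). It had 7739, 7334 and 6951 in alisertib tumours and 1812, 2061 and 2146 in vehicle tumours, a log2 difference of 1.87 ± 0.13. Inka2, an inhibitor of the kinase PAK4, had 2338, 1858 and 2108 in alisertib tumours and 537, 571 and 677 in vehicle tumours (1.82 ± 0.21, adjusted p = 0.00213, limma). Slc2a9, a urate transporter, had a log2 difference of 2.21 ± 0.20 and Slc19a2, a thiamine transporter, of 1.47 ± 0.16. The other risen genes named by this rule were 1700007K13Rik (2.99), Efcab1 (2.74), Pqlc3 (2.43), 9230114K14Rik (2.12) and Mab21l3 (1.80), with Trp53inp1 and Ccng1 above. All 14 were higher in each alisertib library than in any vehicle library, which the rule required of them.

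**Figure D2:**
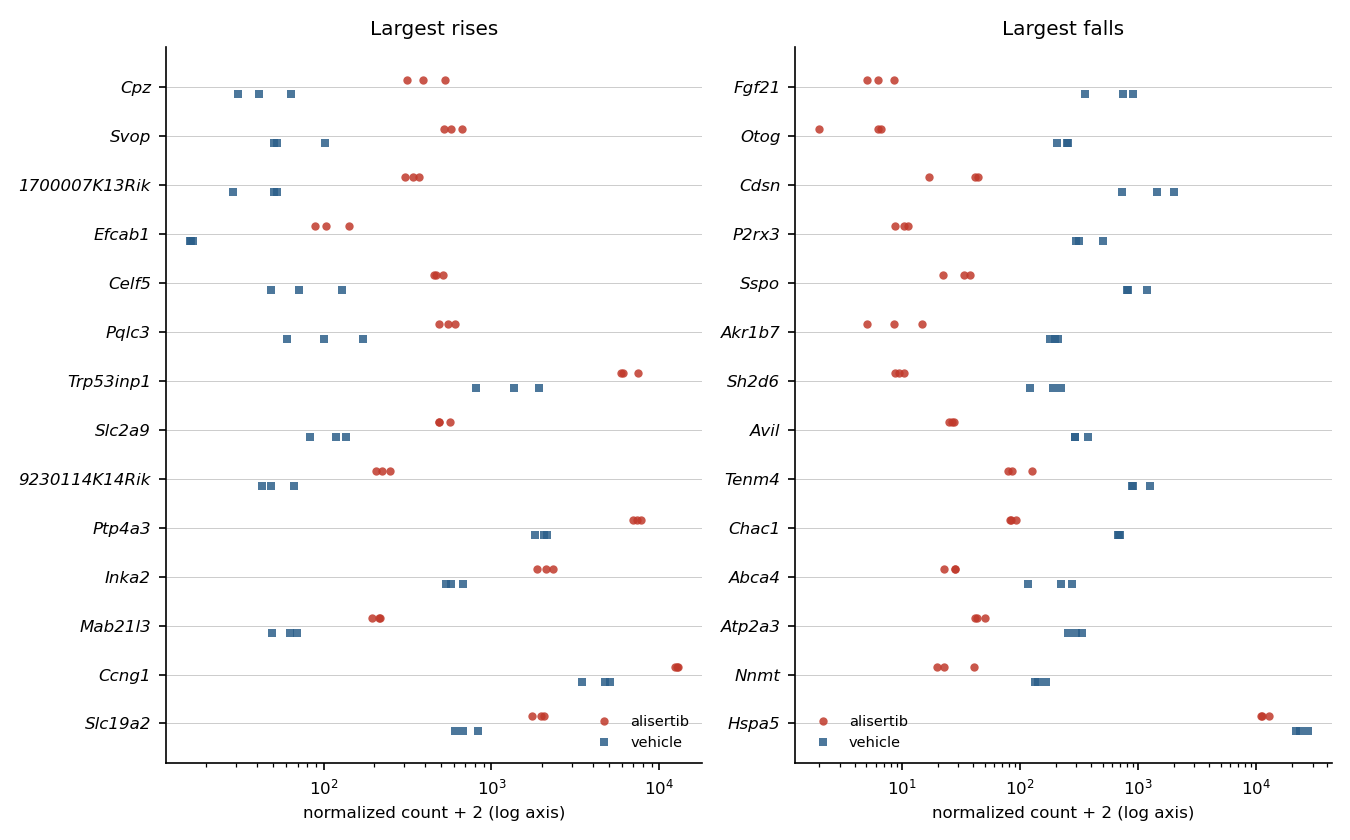
Normalized count + 2 (horizontal log axis) in each alisertib library (red circles) and each vehicle library (blue squares) for the 14 largest rises (left panel) and the 14 largest falls (right panel) that held in every fit with a library left out. In every gene the 3 circles lie on 1 side of the 3 squares, because only genes without overlap were eligible. They lie furthest from the squares for Fgf21, whose log2 difference was -6.59.

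Of the passing genes with the highest normalized counts, which also reflect gene length, Ctsb led the risen ones. It encodes the lysosomal protease cathepsin B and had 40818, 42370.3 and 32777 in alisertib tumours and 16219.7, 15579 and 23344 in vehicle tumours. The log2 difference was 1.09 ± 0.21 (adjusted p = 0.0391, limma), with adjusted p up to 0.19 when any library but vehicle 3 was left out, and 0.0515 without vehicle 2 and combination 3 together. Cd81, a tetraspanin, rose by 0.75 ± 0.15 (adjusted p = 0.0492, limma, and up to 0.21 without any library but vehicle 3). Ephx1, a detoxifying epoxide hydrolase, had 11279, 9957 and 10412 in alisertib tumours and 4063, 4479 and 5041 in vehicle tumours. Its log2 difference of 1.22 ± 0.14 (adjusted p = 0.0025, limma) held in all 6 fits with a library left out.

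Of 34 tested ATF4 and amino acid stress genes, 7 fell and none rose, against 0.318% of all genes falling. Their median log2 difference was -0.97, 31 of the 34 were negative, and in 28 the 3 alisertib values lay below the 3 vehicle values, as in 10.5% of all genes. By DESeq2 on recovered reads, 18 of the 34 fell and 1 rose, beside 292 fallen and 333 risen among all genes. Of all limma log2 differences, 51.1% were positive.

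Fgf21, a secreted hormone that stressed cells induce through ATF4, had 4.26, 3.06 and 6.55 normalized counts in alisertib tumours and 745, 350.4 and 909 in vehicle tumours. It was the largest change of the comparison, at -6.59 ± 0.61 on the log2 scale (adjusted p = 0.000851, limma), and left only a few reads per alisertib library. Chac1, an enzyme that breaks down glutathione, had 90.2, 81.8 and 79.5 in alisertib tumours and 667, 689 and 699.9 in vehicle tumours. Both groups were narrow, and the log2 difference was -3.0 ± 0.42 (adjusted p = 0.00612, limma). Nupr1, a small stress-induced nuclear protein, had 139.6, 131 and 100.1 in alisertib tumours and 924, 879.7 and 603 in vehicle tumours (-2.67 ± 0.42, adjusted p = 0.0141, limma, and up to 0.085 without any library but vehicle 3). Pycr1, the mitochondrial enzyme of the last step of proline synthesis, had 19.6, 28.3 and 28.1 in alisertib tumours and 219.8, 137 and 298 in vehicle tumours (-2.96 ± 0.49, adjusted p = 0.0198, limma, and up to 0.112 without any library but vehicle 2). None of these 4 genes overlapped between the groups, and Fgf21 and Chac1 passed in all 6 fits with a library left out.

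The promoters of 5 fallen genes are shown because they hold TGATGNAA, the core of the composite element that ATF4 binds with C/EBP proteins. This core was found on either strand in 297 of the 10928 windows (2.72%), in 9 of the 41 fallen genes with a window (22.0%) and in 3 of the 78 risen genes. In the ATF4 list it was in 10 of 30 windows. The core is in capitals; in Fgf21, Chac1, Nupr1 and Pck2 it reads as its reverse complement. These 5 cores begin between 193 and 103 bases before the RefSeq start (GRCm38.p6). In the other 4 fallen genes the core lies close to the start: it begins 33 bases before it in 4930438A08Rik, 17 before it in Avil, 4 before it in Slc1a4 and 14 after it in Trib3. Slc1a4 and 4930438A08Rik are named for this match alone.
Fgf21 (chr7:45615597-45615654, minus strand): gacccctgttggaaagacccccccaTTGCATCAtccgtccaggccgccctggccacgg
Chac1 (chr2:119351024-119351081, plus strand): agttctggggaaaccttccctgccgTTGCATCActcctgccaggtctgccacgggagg
Nupr1 (chr7:126625548-126625605, minus strand): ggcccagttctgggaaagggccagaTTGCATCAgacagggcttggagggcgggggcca
Pycr1 (chr11:120643819-120643876, minus strand): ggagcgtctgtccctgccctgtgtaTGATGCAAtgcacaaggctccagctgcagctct
Pck2 (chr14:55540138-55540195, plus strand): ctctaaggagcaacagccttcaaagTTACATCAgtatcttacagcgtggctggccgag

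Fgf21, Chac1 and Nupr1 share the same 8 letters, and Pycr1 holds them on the opposite strand. Pck2, the mitochondrial enzyme that turns oxaloacetate into phosphoenolpyruvate, lies outside the list and is shown after its values were seen. It had 886, 828 and 1252 normalized counts in alisertib tumours and 3405, 5807 and 4039.7 in vehicle tumours (-2.15 ± 0.39, adjusted p = 0.0283, limma). That call was lost without any 1 of the 6 libraries, with adjusted p up to 0.139, and without vehicle 2 and combination 3 together (0.0826). The other fallen members of the list were Trib3, a pseudokinase that feeds back on ATF4 (-2.74), Gpt2, a mitochondrial alanine aminotransferase (-1.06), and Shmt2, a mitochondrial enzyme of serine breakdown (-0.84). Each of these 3 calls was also lost without any 1 of the 6 libraries, with adjusted p up to 0.139 for Trib3 (0.125 without vehicle 2 and combination 3 together), 0.132 for Gpt2 and 0.191 for Shmt2. With a library left out, 2 to 3 of the 34 genes passed.
Several well-known members did not pass. Atf4 itself had 4257, 3847 and 4183 in alisertib tumours and 8435, 4219 and 7352 in vehicle tumours, with overlap at vehicle 2 (-0.64 ± 0.28, adjusted p = 0.369, limma). Asns, which makes asparagine, had a log2 difference of -1.25 ± 0.38 (adjusted p = 0.196, limma), and Slc7a11, the cystine importer, of -2.92 ± 0.61 (adjusted p = 0.0594, limma). Among the 20 cytoplasmic tRNA synthetases, which charge tRNAs and include ATF4 targets, Cars alone fell (-0.80 ± 0.16, adjusted p = 0.043, limma, and up to 0.202 without any 1 library). Their median was -0.51, and 18 of the 20 were negative.

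Of 21 tested ER chaperone and folding genes, 3 fell and none rose, with a median log2 difference of -0.42, and in 15 the alisertib values lay below the vehicle values. Over all genes, 0.318% fell and 10.5% had all alisertib values below. Hspa5, the ER chaperone BiP, had 11066, 11114 and 12875 normalized counts in alisertib tumours and 21779.8, 23324 and 27222 in vehicle tumours. The groups were far apart, the log2 difference was -1.04 ± 0.13 (adjusted p = 0.00314, limma), and it passed in all 6 fits with a library left out, as the only gene of the list to do so. Hyou1, an ER chaperone of the HSP110 type, had 5357, 4897 and 6152 in alisertib tumours and 9165, 13521 and 10996 in vehicle tumours (-1.03 ± 0.20, adjusted p = 0.0424, limma). Manf, an ER-resident survival factor, had 1709.8, 1976 and 1945 in alisertib tumours and 3049.8, 2815 and 2882 in vehicle tumours (-0.64 ± 0.11, adjusted p = 0.0283, limma). Both were lost without any 1 of the 6 libraries, with adjusted p up to 0.194 for Hyou1 and 0.16 for Manf.
The Hspa5 promoter is shown because it holds the ER stress response element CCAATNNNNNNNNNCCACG, in capitals, starting 65 bases before the RefSeq start (GRCm38.p6). That element was found, on either strand, in 21 of the 10928 windows (0.192%) and in 8 of the 19 ER chaperone windows.
Hspa5 (chr2:34772000-34772068, plus strand): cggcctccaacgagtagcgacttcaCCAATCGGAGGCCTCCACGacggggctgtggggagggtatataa

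Among the other steep falls, Sspo, which encodes the large secreted protein SCO-spondin of the brain's ependyma, had 20.4, 31.3 and 35.6 normalized counts in alisertib tumours and 814, 1179 and 804 in vehicle tumours (-4.92 ± 0.41, adjusted p = 0.000591, limma). Otog, a protein of the inner ear's gelatinous membranes, had 4.26, 4.59 and 0 in alisertib tumours and 248, 203 and 252 in vehicle tumours (-5.76 ± 0.56, adjusted p = 0.001, limma). Cdsn, an adhesion protein of cornified skin cells, had 39.1, 42.0 and 15 in alisertib tumours and 1437, 733 and 2005 in vehicle tumours (-5.36 ± 0.68, adjusted p = 0.00383, limma). The keratinocyte marker list had a summed level of 73.0 to 87.9 in alisertib tumours and 84.9 to 122.5 in vehicle tumours. Of its 12 genes, 6 were at 0 in all 6 libraries and only 2 were tested. The part of skin cells in the fall of Cdsn was not tested.
P2rx3, an ATP-gated channel of sensory neurons, had 6.81, 9.17 and 8.42 in alisertib tumours and 504, 311 and 298 in vehicle tumours (-5.17 ± 0.66, adjusted p = 0.00383, limma). Tenm4, a transmembrane teneurin, had 125, 77.2 and 83.3 in alisertib tumours and 1253, 909 and 889 in vehicle tumours (-3.40 ± 0.35, adjusted p = 0.00133, limma). Avil, which encodes the actin-binding protein advillin, had 25.5, 22.9 and 24.3 in alisertib tumours and 375, 292 and 291 in vehicle tumours (-3.60 ± 0.32, adjusted p = 0.000696, limma). In each of these 6 genes the lowest vehicle library held several times the highest alisertib library. The other fallen genes named by this rule were the reductase Akr1b7 (-4.50), Sh2d6 (-4.17), the retinal flippase Abca4 (-2.88), the ER calcium pump Atp2a3 (-2.71) and the nicotinamide methyltransferase Nnmt (-2.48). All of them passed in every fit with a library left out, as the rule required.

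Among the fallen genes with the highest normalized counts, beside Hspa5, Hyou1 and Shmt2, were Ddr2, a collagen receptor kinase (-0.88 ± 0.16, adjusted p = 0.0299, limma), and Rrbp1, an ER ribosome-binding protein (-0.59 ± 0.11, adjusted p = 0.0366, limma). Both calls were lost without any 1 of the 6 libraries, with adjusted p up to 0.145 for Ddr2 and 0.18 for Rrbp1. Hist1h1e, a linker histone gene, had 5709.7, 6154 and 8098 in alisertib tumours and 13196, 12217 and 10298 in vehicle tumours (-0.85 ± 0.17, adjusted p = 0.0436, limma, and up to 0.227 without any library but alisertib 3). It was the only faller among 19 replication-dependent histone genes, whose median was -0.66 with 18 negative. Histone genes are near copies of each other, so the split of reads among them is uncertain.

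**Figure D3:**
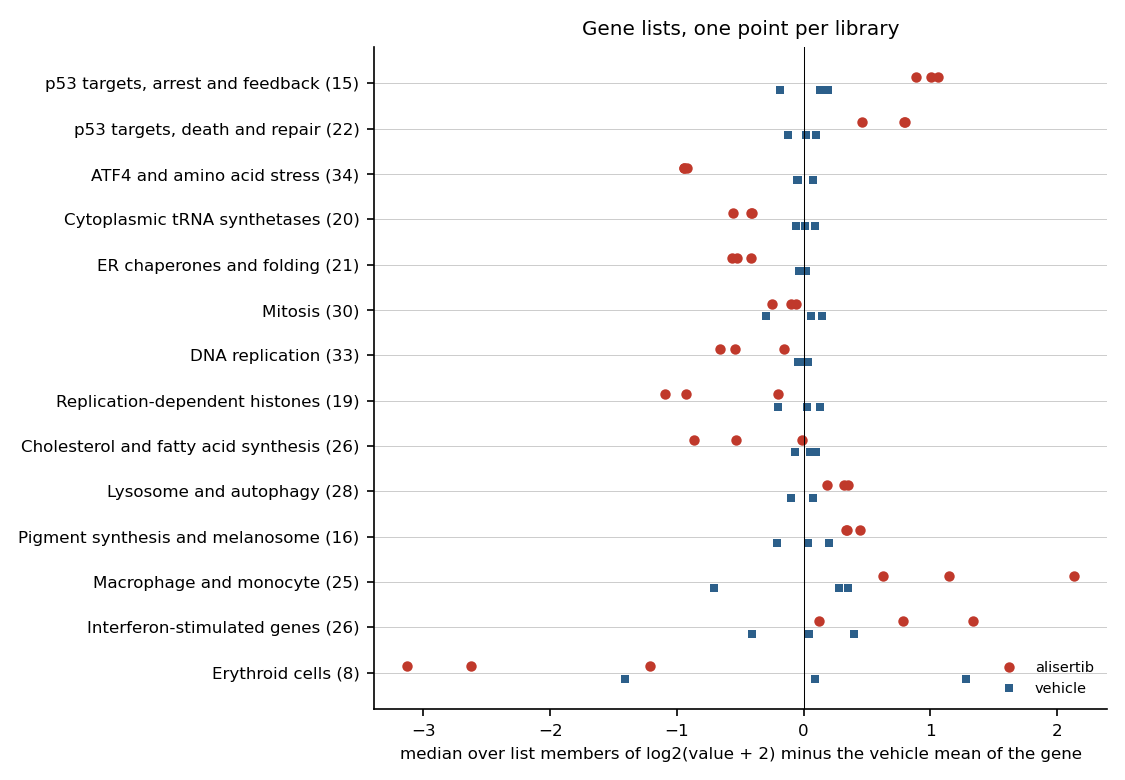
Median over the tested genes of each list of the deviation of log2(normalized count + 2) from the vehicle mean, 1 point for each alisertib and each vehicle library. For the p53 arrest and feedback list the alisertib libraries lie at 0.88 to 1.06 and the vehicle libraries at -0.18 to 0.19.

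No gene of the drug's own pathway passed the threshold. Aurka had 1019.6, 821 and 1244 normalized counts in alisertib tumours and 1103, 1473 and 1061 in vehicle tumours, which overlap (-0.24 ± 0.18, adjusted p = 0.593, limma). This level checks no label, because alisertib acts on the kinase and not on its RNA. Tpx2, the spindle activator of Aurora A, had 1843, 1606 and 1741 in alisertib tumours and 2138, 1865 and 1906 in vehicle tumours (-0.19 ± 0.14, adjusted p = 0.59, limma). Aurkb, the kinase of the chromosomal passenger complex, had 1236, 1207 and 2072 in alisertib tumours and 2279, 4023 and 1816 in vehicle tumours (-0.81 ± 0.34, adjusted p = 0.336, limma).
Of 13 Aurora kinase and partner genes none passed by limma or by edgeR, 5 were lower at an unadjusted p under 0.05, 2 were lower by DESeq2, and the median log2 difference was -0.29. Of 30 mitosis genes none passed by limma, edgeR or DESeq2, 5 were lower at an unadjusted p under 0.05, and the median was -0.14. Of 33 DNA replication genes none passed by limma or edgeR and 4 were lower by DESeq2, while 17 were lower and none higher at an unadjusted p under 0.05. Their median was -0.50 and 31 were negative. For comparison, 2213 of all 16993 genes were at an unadjusted p under 0.05 in either direction. Of all genes 51.1% were positive, and DESeq2 called 292 lower. Chaf1b, a histone chaperone subunit at replication forks, came closest, with 598, 589 and 769 in alisertib tumours and 993, 1122 and 1044 in vehicle tumours (-0.70 ± 0.15, adjusted p = 0.0632, limma). Mki67, the proliferation marker Ki-67, had 7881, 6877 and 6487 in alisertib tumours and 11035, 9139.6 and 10205 in vehicle tumours, without overlap (-0.52 ± 0.16, adjusted p = 0.202, limma).

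Markers of host cells were followed beside the tumour genes. All 25 macrophage and monocyte genes had positive log2 differences, with a median of 1.27, and in 13 the alisertib values lay above the vehicle values, as in 10.7% of all genes. Lyz2, the macrophage lysozyme, was the 1 gene that passed, against 0.553% of all genes, with 1734, 4809.8 and 2709 normalized counts in alisertib tumours and 397, 875 and 793 in vehicle tumours (2.12 ± 0.37, adjusted p = 0.0236, limma). Its call was lost without alisertib 2 or 3 or vehicle 1 or 3, with adjusted p up to 0.0994, and without vehicle 2 and combination 3 together (0.0502). By DESeq2, 8 of the 25 rose, and 11 were higher at an unadjusted p under 0.05. Among all genes, DESeq2 called 333 higher, and 2213 of 16993 were at an unadjusted p under 0.05 in either direction. Adgre1, the macrophage marker F4/80, had 255, 530.3 and 350.0 in alisertib tumours and 66.9, 108 and 155 in vehicle tumours, with no overlap, but did not pass (1.78 ± 0.54, adjusted p = 0.191, limma). The list's summed level was 31055.9 to 43453 in alisertib tumours and 20706 to 34799 in vehicle tumours. Ctsb is also a macrophage gene, and the part of macrophages in its rise was not tested.
The 8 tested erythroid genes had a median log2 difference of -2.39, and haemoglobin genes took 0.00623 to 0.0280% of the reads outside the ribosomal loci in alisertib tumours and 0.0193 to 0.145% in vehicle tumours. None passed by limma or edgeR, 6 were lower at an unadjusted p under 0.05, and 2 were lower by DESeq2. Markers of T and NK cells stayed low everywhere, with a summed level of 47.7 to 140.6 in alisertib tumours and 93.1 to 101.9 in vehicle tumours.

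Of the 40 lists, 39 had a tested gene and 8 had a gene past the threshold; of the other 31 lists, 12 had a gene past it by DESeq2 and 1 had a gene past it by edgeR. All 26 cholesterol and fatty acid synthesis genes were negative, with a median log2 difference of -0.45. None of them passed by limma or edgeR, 10 were lower at an unadjusted p under 0.05, and 1 was lower by DESeq2. Pigment synthesis and melanosome genes had a median of 0.38 with 14 of 16 positive; none passed by limma, edgeR or DESeq2, and 2 were higher at an unadjusted p under 0.05. Interferon-stimulated genes had a median of 0.76 with 24 of 26 positive, and none passed by limma, edgeR or DESeq2 or was at an unadjusted p under 0.05. Secreted senescence factors had a median of 0.86 over 23 genes; none passed by limma or edgeR, 2 were higher by DESeq2, and 6 were higher at an unadjusted p under 0.05. Of the 28 lysosome and autophagy genes, Ctsb passed and the median was 0.28. These counts stand beside 51.1% positive among all genes, with 2213 of 16993 at an unadjusted p under 0.05 in either direction.

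A second contrast asked whether alisertib acted alike when navitoclax was given too: tumours given both drugs against tumours given navitoclax, which shares no library with the comparison above, though both use the variance estimates of 1 fit. In it 202 genes passed (1.19%), 164 higher (0.965%) and 38 lower (0.224%). All 94 genes raised by alisertib alone were also positive there, and 58 passed, which is 61.7% of the 94 and 35.4% of the 164. Their median log2 difference was 1.51 for alisertib alone and 1.36 on top of navitoclax. Of the 54 fallen genes, 51 were negative there and 5 passed (9.26% of the 54 and 13.2% of the 38), and the median was -2.73 for alisertib alone and -0.79 on top of navitoclax. Over all genes, 47.6% had the same sign in both contrasts. With only its own 6 libraries in the fit, the second contrast gave 13 passing genes, 13 higher and 0 lower. No fallen gene passed again in that fit. Navitoclax 1 stood apart in skeletal muscle RNA: the summed level of the muscle list was 174786 there and 282 to 1798 in the other libraries, and the median log2 difference of its 18 tested genes was -2.64 in this contrast, with none past the threshold by limma, edgeR or DESeq2 and 1 at an unadjusted p under 0.05 by limma (16 by edgeR, 0 by DESeq2). The part of muscle RNA in this contrast was not tested, but without navitoclax 1, 71 genes passed. With 1 of the 6 libraries left out, 53 genes (without combination 1) to 293 genes (without combination 2) passed on top of navitoclax, and 71 to 82 passed without combination 3 or any 1 navitoclax library.
On top of navitoclax, 7 of the 15 arrest and feedback genes and 7 of the 22 death and repair genes rose, with a median of 1.38 in the arrest and feedback list. Of the 34 ATF4 and amino acid stress genes, 1 fell and 1 rose there, with a median of -0.65. None of the 21 ER chaperone and folding genes passed there, with a median of -0.23. The 20 cytoplasmic tRNA synthetases also had no passing gene there, with a median of -0.30. Svop had 824, 656 and 1755 normalized counts with both drugs and 29.8, 41.9 and 35.7 with navitoclax (4.72 ± 0.37, adjusted p = 0.000313, limma). Cpz had 400.3, 383 and 568 with both drugs and 21.5, 28.5 and 22.2 with navitoclax (4.11 ± 0.31, adjusted p = 0.000313, limma). Some lists without a passing gene for alisertib alone had fallen genes here in the fit of all 12 libraries. Of 30 mitosis genes 3 were lower and none higher, with a median of -0.72. Of 33 DNA replication genes 5 were lower and none higher, with a median of -0.64. No Aurora kinase or partner gene passed here, with a median of -0.55. The 5 fallen genes that passed again in the fit of all 12 libraries were Cacnb4, Chac1, Hist1h1e, Hoxb9 and Sh2d6. The 3 with the opposite sign were Adm2 (0.11), Avil (0.61) and Trim66 (1.05). Adm2, Cacnb4, Hoxb9 and Trim66 are named here after their values were seen, and their falls with alisertib alone were each lost in fits with a library left out, with adjusted p up to 0.227, 0.198, 0.155 and 0.195.

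**Figure D4:**
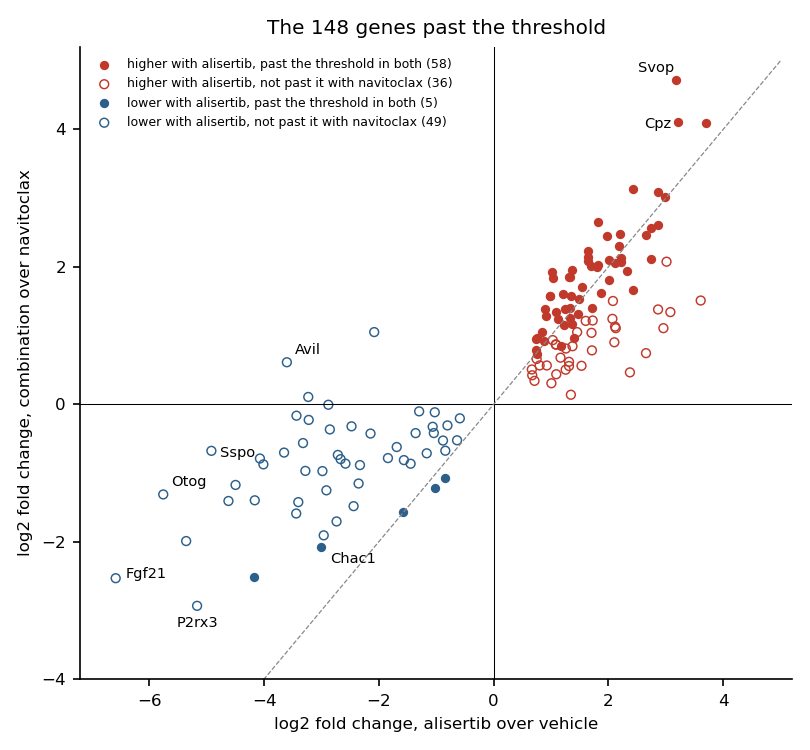
Log2 difference of the combination against navitoclax (vertical axis) against that of alisertib against vehicle (horizontal axis) for the 148 genes that passed for alisertib against vehicle. The 94 risen genes all lie above 0 on the vertical axis, with a median of 1.36, while the 54 fallen genes lie nearer to 0 there, with a median of -0.79.

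The levels of some fallen genes in all 4 groups are given side by side, since the navitoclax and alisertib groups share the vehicle libraries as their control. Sspo averaged 29.1 ± 7.81 normalized counts with alisertib, 29.6 ± 9.16 with both drugs, 52.3 ± 25.6 with navitoclax and 932 ± 213 with vehicle (SD, n = 3 each). Abca4 averaged 24.3 ± 3.24 with alisertib, 21.6 ± 7.78 with both drugs, 21.6 ± 6.84 with navitoclax and 203 ± 80.6 with vehicle. Fgf21 averaged 4.62 ± 1.78 with alisertib, 3.96 ± 3.28 with both drugs, 34.7 ± 24.3 with navitoclax and 668 ± 287 with vehicle. In all 3 genes the 3 drug groups lay far below vehicle. Other fallen genes stayed near vehicle with navitoclax. Hist1h1e averaged 6654 ± 1270 with alisertib, 5939 ± 945 with both drugs, 12421 ± 402 with navitoclax and 11904 ± 1474 with vehicle. Shmt2 averaged 2126 ± 97.3 with alisertib, 2209 ± 180 with both drugs, 3601 ± 949 with navitoclax and 3816 ± 276 with vehicle.
Hspa5 averaged 11685 ± 1031 with alisertib, 10988 ± 874 with both drugs, 14670.2 ± 510.2 with navitoclax and 24109 ± 2805 with vehicle. Chac1 was less uniform: it averaged 83.8 ± 5.63 with alisertib, 69.1 ± 8.11 with both drugs, 362 ± 288 with navitoclax and 685 ± 16.6 with vehicle, and navitoclax 2, at 691, lay within the vehicle range. Cdkn1a showed another order, with 10572 ± 366 with alisertib, 12604 ± 2144 with both drugs, 3488 ± 687 with navitoclax and 4307 ± 919 with vehicle. All 6 libraries from tumours given alisertib, alone or with navitoclax, lay above the other 6.

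**Figure D5:**
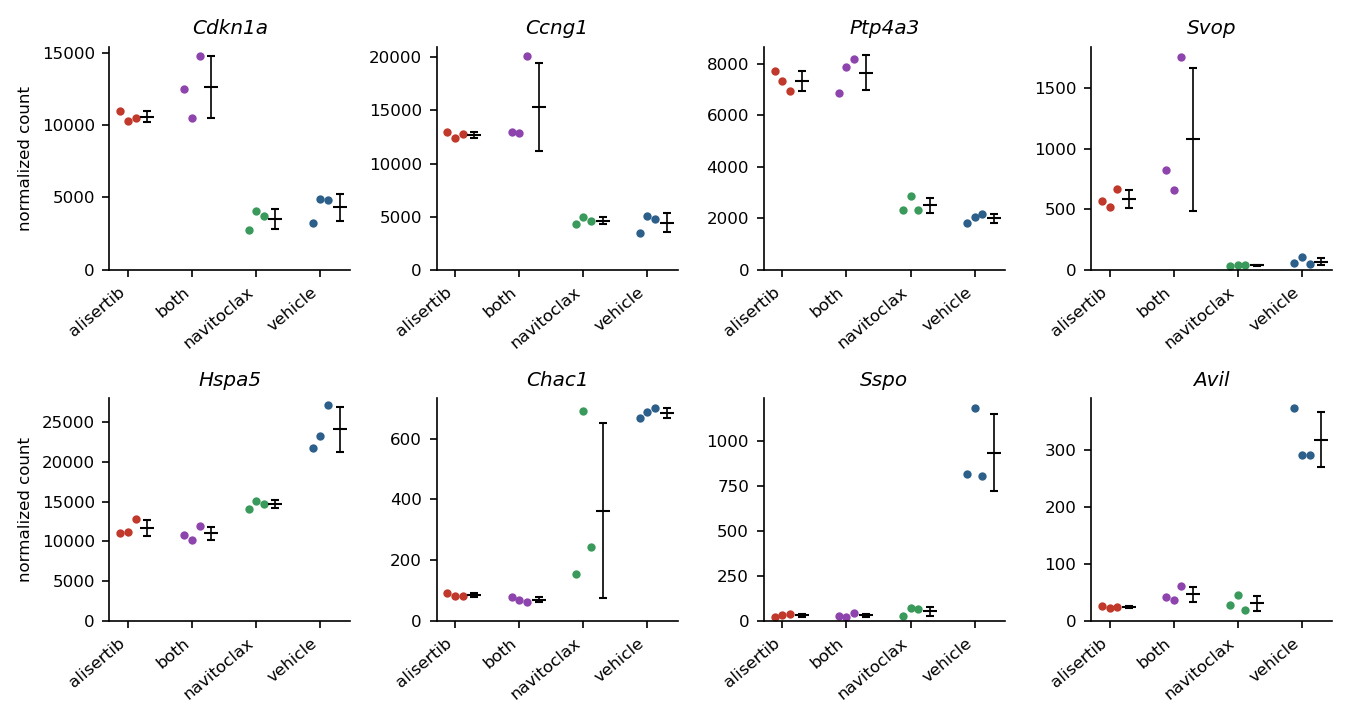
Normalized counts (linear axes from 0) of 8 genes in each library of the 4 groups, ordered alisertib, both drugs, navitoclax and vehicle, with the mean ± SD of each group (n = 3). Cdkn1a, Ccng1, Ptp4a3 and Svop are high in the alisertib and combination groups, while Sspo and Avil are low in all 3 drug groups, for Avil 24.3, 46.3 and 30.5 against 319 in vehicle.

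For Avil, the effect of alisertib differed with and without navitoclax. It had 41.6, 35.8 and 61.5 normalized counts with both drugs and 28.1, 44.3 and 19 with navitoclax, which overlap, so that alisertib on top of navitoclax gave a log2 difference of 0.61 ± 0.32 (adjusted p = 0.319, limma). The difference of the effects was 4.21 ± 0.45 on the log2 scale (adjusted p = 0.0198, limma), the only interaction past the threshold among 16993 genes (0.00588%), with 1449 at an unadjusted p under 0.05. That call was lost without any 1 alisertib or vehicle library, without combination 1 and without navitoclax 1, with adjusted p up to 0.133, and without vehicle 2 and combination 3 together (0.0759). For the other genes a pass in 1 contrast and a miss in the other is not a shown difference between them.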

How the data were processed

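The deposited table holds, for each gene and library, a normalized signal, which the authors made by dividing read counts by 1 size factor per library; in every library 100% of the values were whole multiples of 1 step within 0.001, so whole reads were recovered by dividing by it. Per the submitters' processing notes, HISAT2 2.0.6, featureCounts, Subread 1.5.1 and DESeq2 were used with the builds GRCm38.p4 and mm10; the annotation release and the strand setting of the counting are not given in the sources used here. Antisense genes and near-identical copies therefore have uncertain values. Groups came from the treatment in the labels, which number no replicates, so numbers follow accession order and pair nothing. The column of navitoclax 3 was matched by its library code. Of 50600 genes, 50376 matched GENCODE M21 by identifier, which gave symbols and coordinates (GRCm38); 68 symbols are shared by several identifiers.

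The 16993 genes tested had 3 or more libraries at a value of 10 or above. limma 3.58.1 in R 4.3.3, with trended and robust variance moderation, was fitted to log2(value + 2) of all 12 libraries with a mean per group. The plan named edgeR as the main test only if the values were raw counts. Since the values are normalized, edgeR 4.0.16 (quasi-likelihood, TMM) and DESeq2 1.42.0 were run on the recovered reads as alternatives, and the tests were tried on simulated data. Other alternatives were limma-voom, TMM scaling, pseudocounts of 0.5 and 8, no filter, only the compared groups, no vehicle 2 and combination 3, the ribosomal share as a covariate, and each library left out. Depth sets precision: 3 reads are worth 2.29 to 2.81 in alisertib libraries and 2.65 to 7.35 in vehicle libraries, which covers counting error only.

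The comparison, the 40 gene lists (735 genes) and the rules were chosen with earlier results of these data known. Named genes were Aurka, Aurkb, Tpx2, Cdkn1a and Mdm2; the 14 largest changes each way among genes with a mean of at least 50 that passed in all 6 leave-one-out fits without overlap; the 6 passing genes with the highest level each way; and the members of each described list with the smallest p, at most 4 of them. Others are named because they complete a list's calls or were chosen after their values were seen. Motifs were searched on both strands of RefSeq promoter windows by exact match.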

Additional observations from a re-analysis of the deposited data

Results flagged for a closer look

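Avil, the gene of advillin, was singled out because the effect of alisertib differed with and without navitoclax by a test of the difference itself. The log2 effect of alisertib was 4.21 ± 0.45 higher in the presence of navitoclax than in its absence (adjusted p = 0.0198, limma, interaction term). Avil had 25.5, 22.9 and 24.3 normalized counts with alisertib and 375, 292 and 291 with vehicle. It had 41.6, 35.8 and 61.5 with both drugs and 28.1, 44.3 and 19 with navitoclax. Only the vehicle group was high. The call was lost without any 1 alisertib or vehicle library, and without vehicle 2 and combination 3 together. Differences of like size that did not pass were seen for Otog (4.45, adjusted p = 0.436, limma) and Sspo (4.24, adjusted p = 0.12, limma). In both of these genes, too, only the vehicle group was high.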

How the results depend on the processing

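Direction was checked for 51 named genes and for the medians of the 8 lists with a passing gene, and none reversed. For the 48 passing genes among the 51, the alisertib and vehicle values did not overlap. Leaving out a library, changing the pseudocount or dropping the filter therefore could not turn their sign, so those fits do not test it. The list medians were checked under TMM scaling, without vehicle 2 and combination 3, and with 1 library left out. Some medians of lists with no passing gene did change sign without vehicle 2 and combination 3. Examples are skeletal muscle (-0.44 to 0.12) and long noncoding RNAs (0.15 to -0.03). For alisertib against vehicle, against 148 genes (94 higher, 54 lower), the count was 625 by DESeq2 (333 higher, 292 lower), 1241 by limma-voom (627 higher, 614 lower), 770 with the ribosomal share as a covariate (384 higher, 386 lower) and 90 when the fit held the compared groups alone (44 higher, 46 lower); with 1 library left out it was 49 to 97. For the combination against navitoclax, against 202, it was 1008 by DESeq2, 1628 by limma-voom, 117 with no filter, 13 with only the compared groups, 359 without vehicle 2 and combination 3, 630 with the covariate, and 53 to 293 with 1 library left out. For the interaction, against 1 gene, it was 5 by DESeq2, 3 by limma-voom, 3 with a pseudocount of 8, 0 without vehicle 2 and combination 3 (limma; 718 genes at an unadjusted p under 0.05), and 0 to 1 with 1 library left out. edgeR, TMM scaling and a pseudocount of 0.5 kept every one of these counts within 1.5 times. The cause of these shifts was not tested, beyond the fewer libraries in the fits that leave some out. Of the 48 passing genes named by the rules, 10 to 17 lost their call with 1 library left out, 12 with only the compared groups, 6 with no filter, 5 without vehicle 2 and combination 3 (Cars, Ctsb, Hist1h1e, Lyz2 and Shmt2), 4 by edgeR (Cars, Cd81, Hist1h1e and Shmt2), 2 by TMM scaling (Cars and Shmt2), 1 with a pseudocount of 0.5, and none by DESeq2, limma-voom, a pseudocount of 8 or the covariate. Of the 48, 28 had been chosen partly for passing in every fit with 1 library left out. Only the rest could lose their call in those fits. Among passing genes named outside the rules, Trib3, Pck2, Slc1a4 and Trim66 lost their call without vehicle 2 and combination 3, where Adm2 and 4930438A08Rik were not tested, and Adm2 and Trim66 lost it by edgeR. Aurkb, which had not passed, did so by limma-voom (adjusted p = 0.0377) and with the covariate (0.0102). No paired analysis was possible because the labels give no replicate numbers. Depth limits genes with few reads, above all in vehicle 2, where 3 reads are worth 7.35.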
